A study of Mus musculus with 20 samples.

Results

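Gpnmb and 9 genes that lipid-laden macrophages are known to carry were followed across 4 groups of mouse RNA-sequencing libraries. The 10 genes, of 25700 counted in the files, were Gpnmb, Trem2, Lgals3, Cd9, Cd63, Fabp5, Lpl, Apoe, Plin2 and Atp6v0d2. They were listed by name, and chosen by results of untreated oxalate mice set against untreated controls, the comparison in which Gpnmb changed most. For that comparison levels and fold changes are therefore a description with no test. The groups, of 5 libraries each, were oxalate mice given alkali therapy, oxalate mice left untreated, control mice given alkali therapy and control mice left untreated. The series describes the oxalate mice as having crystal nephropathy, kidney injury by crystals, and the alkali as a bicarbonate supplement. Sample titles add late to each group that received alkali. No label says what late means, so untreated and alkali-treated libraries may differ in more than alkali. The labels give no tissue, time, strain, sex or age, and do not say that each library came from its own mouse. The p-values below therefore measure the spread between libraries, which may be technical in part.

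Macrophages that take up lipid and cell debris switch to a program led by Trem2, a surface receptor for lipids and lipoproteins that signals through the adaptor Tyrobp. Gpnmb is a membrane glycoprotein of lysosomes that rises when these are overloaded. The other genes serve capture of debris (the lectin Lgals3), membrane organisation (the tetraspanins Cd9 and Cd63), fatty acid handling (Fabp5, Lpl, Plin2), sterol export (Apoe) and acidification of lysosomes (Atp6v0d2). Several are not limited to macrophages: in the kidney, Atp6v0d2 is known from acid-secreting intercalated cells, and Cd63, Cd9, Lpl and Plin2 are made by many cell types.

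The promoters of Gpnmb and Trem2 are shown because no other pair of the 10 genes rose as far, and those of Cd9 and Plin2 because they hold the other matches to the motifs searched. RefSeq sequence (GRCm38.p6) from 250 bases before to 50 bases after the annotated start matched 7 of the 10 genes with 9 entries. The windows are chr6:49036268-49036567 on the plus strand for Gpnmb, chr17:48346151-48346450 on the plus strand for Trem2, chr6:125494711-125495010 on the minus strand for Cd9 and chr4:86670010-86670309 on the minus strand for Plin2. Capitals mark a motif match.
Gpnmb: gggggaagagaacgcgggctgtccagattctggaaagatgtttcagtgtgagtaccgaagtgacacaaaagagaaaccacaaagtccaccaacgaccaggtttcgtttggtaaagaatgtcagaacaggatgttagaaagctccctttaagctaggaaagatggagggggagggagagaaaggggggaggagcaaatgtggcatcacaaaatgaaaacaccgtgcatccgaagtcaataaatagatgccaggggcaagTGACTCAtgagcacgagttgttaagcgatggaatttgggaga
Trem2: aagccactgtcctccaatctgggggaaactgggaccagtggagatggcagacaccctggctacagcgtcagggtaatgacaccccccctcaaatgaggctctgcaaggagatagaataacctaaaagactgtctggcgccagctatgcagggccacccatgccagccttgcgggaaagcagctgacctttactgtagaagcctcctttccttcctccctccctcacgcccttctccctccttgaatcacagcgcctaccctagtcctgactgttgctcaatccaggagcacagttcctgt
Cd9: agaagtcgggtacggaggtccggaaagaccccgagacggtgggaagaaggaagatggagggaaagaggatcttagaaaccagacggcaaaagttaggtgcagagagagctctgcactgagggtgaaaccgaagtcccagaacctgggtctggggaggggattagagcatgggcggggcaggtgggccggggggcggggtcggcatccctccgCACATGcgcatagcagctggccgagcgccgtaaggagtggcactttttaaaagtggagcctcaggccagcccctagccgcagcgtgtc
Plin2: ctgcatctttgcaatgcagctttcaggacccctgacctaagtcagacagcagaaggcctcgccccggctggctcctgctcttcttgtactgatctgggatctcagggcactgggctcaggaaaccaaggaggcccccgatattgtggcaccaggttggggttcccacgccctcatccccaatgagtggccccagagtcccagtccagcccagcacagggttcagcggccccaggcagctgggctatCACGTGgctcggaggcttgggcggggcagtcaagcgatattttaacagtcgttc
Both strands were searched for 4 motifs, and no matches overlapped. TGACTCA, bound by AP-1 factors, was found only in the Gpnmb promoter, beginning 8 bases after the start, and stands in 5.2% of 32851 mouse promoters of this length. CACGTG, the E-box of MiT/TFE factors that drive lysosomal genes, was found only in the Plin2 promoter, 4 bases before the start (7.15% of promoters). CATGTG, the core of the M-box of the same factors, was found only in the Cd9 promoter, 38 bases before the start and as CACATG on the strand printed (14.2% of promoters). GAGGAAGT, bound by the myeloid factor PU.1, was in none of the 9 entries (3.2% of promoters). These are matches of letters and no binding was measured.

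Total counts ran from 25547840 to 39550689 per library. Levels are in CPM, counts scaled to library size with TMM factors, and changes are log2 fold changes ± SE from edgeR's quasi-likelihood test over all 20 libraries. Calls were made where the Benjamini-Hochberg adjusted p over 15430 tested genes was under 0.05. All 10 genes were tested, but Gpnmb and Trem2 passed the filter on low counts through the oxalate libraries, reaching it in 3 of 10 control libraries each. The proximal tubule list of 16 genes, markers of the chief epithelium of the kidney, summed to 24600 to 52400 CPM in oxalate mice on alkali. Untreated oxalate mice had 18800 to 48900 CPM, controls on alkali 55200 to 63100 CPM and untreated controls 59100 to 68900 CPM. Every oxalate library thus lay below every control for this sum. All 24 genes of a macrophage list were detected in every group. Adipoq, a gene of fat cells, exceeded 1 CPM in 6 libraries: oxalate on alkali 33 (35.4 CPM), untreated oxalate 32 (3.12 CPM), controls on alkali 1 (2.91 CPM) and 4 (18 CPM), and untreated controls 26 (29.7 CPM) and 9 (20.1 CPM).

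Gpnmb (chromosome 6, 49036546 to 49070929 in GRCm38) was close to absent in control libraries and abundant in oxalate libraries. It had 9.92, 40.6, 144, 111 and 175 CPM in alkali-treated oxalate libraries 2, 30, 33, 5 and 8, and 500, 435, 92.3, 255 and 1230 CPM in untreated oxalate libraries 12, 3, 32, 39 and 40. Alkali-treated controls had 0.157 to 0.372 CPM and untreated controls 0.122 to 0.377 CPM. Every oxalate library lay above every control, but within a group the highest oxalate library held 17.7 times the level of the lowest on alkali and 13.4 times the lowest without it. In reads, controls had 5 to 10 per library on alkali and 3 to 10 without it, against 288 to 54000 in oxalate libraries, so the size of a fold change against controls rests on few reads.

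Trem2 (chromosome 17, 48346401 to 48354147) followed the same order at lower levels. Its levels were 1.89, 4.8, 11.4, 10.5 and 13.2 CPM in oxalate mice on alkali, and 33.6, 28.3, 10.9, 22.8 and 58.6 CPM in untreated oxalate mice, in the library order given for Gpnmb. Controls had 0.104 to 0.436 CPM on alkali and 0.0847 to 0.713 CPM without it. The lowest and highest oxalate libraries were those of Gpnmb: 2 and 8 on alkali, and 32 and 40 untreated. Per kilobase of exon (RPKM, which allows levels of different genes to be compared), Gpnmb stood above Trem2 in every oxalate library, by a median of 8.01 times on alkali (3.98 to 10.1) and 11.3 times without it (6.42 to 16.0). In controls the median ratio was 0.949 on alkali and 1.08 without it, from a few reads of each gene.

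**Figure D1:**
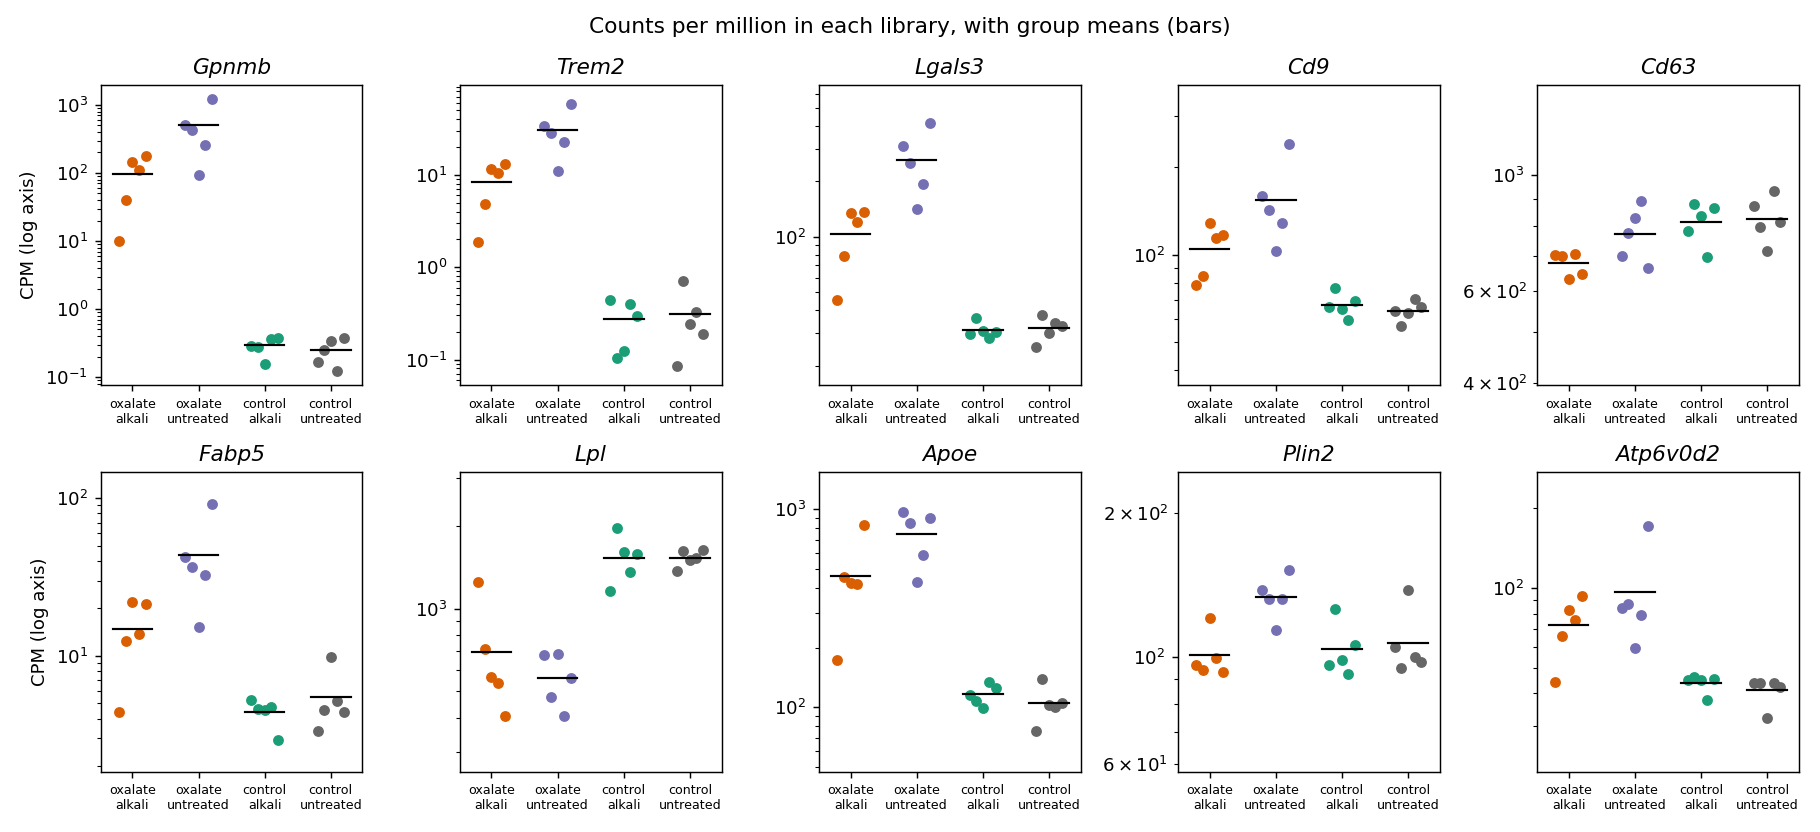
CPM (log axis) of each of the 10 genes in every library, by group, with group means as bars. Gpnmb and Trem2 separate all oxalate libraries from all controls, Cd63 and Plin2 span narrow ranges that overlap, and Lpl is lower in most oxalate libraries.

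Lgals3 (chromosome 14, 47367751 to 47386160), which encodes galectin-3, a sugar-binding lectin of macrophages and injured epithelium, was present in all groups. It had 45.3, 78.4, 135, 121 and 136 CPM in oxalate mice on alkali and 312, 251, 141, 194 and 418 CPM in untreated oxalate mice. Alkali-treated controls had 28.1 to 36.1 CPM and untreated controls 25.1 to 37.7 CPM. The 5 alkali-treated oxalate libraries lay below all 5 untreated ones and above all controls. It was the one gene of the 10 whose oxalate groups did not overlap.

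The tetraspanins went different ways. Cd9 (chromosome 6, 125460266 to 125494791), a surface organiser of adhesion receptors, had 78.5 to 129 CPM in oxalate mice on alkali (median 114), 103 to 240 CPM in untreated oxalate mice (median 143), 59.5 to 76.8 CPM in controls on alkali and 57.0 to 70.2 CPM in untreated controls. Cd63 (chromosome 10, 128900989 to 128912822), a tetraspanin of late endosomes and secreted vesicles, had 634 to 708 CPM, 663 to 893 CPM, 696 to 881 CPM and 717 to 932 CPM in these groups. All oxalate libraries exceeded all controls for Cd9, whereas the 4 ranges of Cd63 overlapped. An exon of Cd9 overlaps the antisense gene Gm26728, which is not in the count files, and the strand setting of the counting is not given, so reads of the 2 genes cannot be told apart.

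Among the genes of lipid handling, Fabp5 (chromosome 3, 10012548 to 10016607), a carrier of fatty acids within cells, had 4.37, 12.4, 21.8, 13.7 and 21.3 CPM in oxalate mice on alkali and 42.3, 36.4, 15.2, 32.5 and 92.1 CPM in untreated oxalate mice. Controls had 2.94 to 5.23 CPM on alkali and 3.34 to 9.86 CPM without it. Alkali-treated oxalate library 2 lay within the control range and the other oxalate libraries above it. Apoe (chromosome 7, 19696109 to 19699188), the lipoprotein component that carries sterol out of macrophages, had 173, 454, 424, 421 and 831 CPM in oxalate mice on alkali and 965, 848, 427, 588 and 906 CPM in untreated oxalate mice. Its controls had 99.0 to 134 CPM on alkali and 75.6 to 139 CPM without it, all below every oxalate library.

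Lpl (chromosome 8, 68880491 to 68907448), the lipase that frees fatty acids from circulating lipoproteins, went the other way. Its levels were 1250, 712, 564, 538 and 407 CPM in oxalate mice on alkali and 678, 475, 683, 407 and 560 CPM in untreated oxalate mice. Controls had 1160 to 1980 CPM on alkali and 1380 to 1640 CPM without it. Oxalate library 2, the lowest for 7 of the 10 genes on alkali, was the highest for Lpl and lay within the range of the controls on alkali. Plin2 (chromosome 4, 86648386 to 86670060), the coat protein of lipid droplets, had 93.2 to 121 CPM in oxalate mice on alkali, 114 to 152 CPM in untreated oxalate mice, 92.5 to 126 CPM in controls on alkali and 94.9 to 138 CPM in untreated controls. Its 4 ranges overlapped.

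Atp6v0d2 (chromosome 4, 19876841 to 19922605) encodes a subunit of the membrane sector of the V-ATPase, the proton pump of lysosomes, osteoclasts and intercalated cells. It had 44.1, 65.6, 82.9, 75.8 and 93.2 CPM in oxalate mice on alkali and 84.0, 86.6, 59.3, 79.3 and 172 CPM in untreated oxalate mice. Controls on alkali had 37.7 to 46.1 CPM and untreated controls 32.3 to 43.7 CPM. Oxalate library 2 was again within the range of the controls on alkali.

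The order of the genes by RPKM differed between groups. In untreated oxalate libraries Apoe came first (349 ± 107, SD, n = 5), then Cd63 (210 ± 25.2), Lgals3 (142 ± 57.8) and Gpnmb (77.3 ± 67.4), and each overlapped the next in its library values. In oxalate libraries on alkali Apoe (215 ± 110) and Cd63 (184 ± 9.64) led and Gpnmb was in the eighth place (14.8 ± 10.7). In untreated controls Cd63 (224 ± 22.0) and Lpl (147 ± 10.3) led without overlap, Apoe (48.9 ± 10.7) came next, and Trem2 (0.0627 ± 0.0488) and Gpnmb (0.0387 ± 0.0167) came last and overlapped. The order in controls on alkali was the same throughout, with Cd63 at 221 ± 20.4 and Lpl at 147 ± 29.4, which overlapped there.

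The list was chosen with earlier results of these data known, so no comparison here is wholly free of that choice. The comparison of oxalate with control mice, both on alkali, shares no library with the comparison that led to the list. In it 7 of the 10 genes rose and 1 fell (5 and 1 of the 8 other than Gpnmb and Trem2), beside 23.4% of all tested genes that rose and 17.1% that fell (40.4% called). Gpnmb rose by 8.36 ± 0.91 (n = 5 per group, edgeR quasi-likelihood test, adjusted p = 1.75e-05) and Trem2 by 4.94 ± 0.61 (adjusted p = 3.64e-05). Both passed the filter on low counts through the oxalate libraries, and in a fit with no filter their adjusted p was 4.97e-05 for Gpnmb and 9.21e-05 for Trem2. Apoe rose by 1.99 ± 0.29 (0.000112), Fabp5 by 1.74 ± 0.43 (0.00536) and Lgals3 by 1.73 ± 0.27 (0.000168). Atp6v0d2 (0.73 ± 0.22, adjusted p = 0.0137) and Cd9 (0.64 ± 0.17, adjusted p = 0.00801) rose less. Lpl fell by 1.15 ± 0.23 (adjusted p = 0.0012). Cd63 (-0.26 ± 0.10, adjusted p = 0.0516) and Plin2 (-0.04 ± 0.11, adjusted p = 0.772) were not called, and Plin2 was at 0.18 with scaling by total counts. Of the 8 other than Gpnmb and Trem2, all 5 oxalate libraries exceeded all 5 controls for Lgals3, Cd9 and Apoe, a separation upward that 10.8% of tested genes had. Gpnmb and Trem2 were separated too, but their passing the filter through the oxalate libraries favoured this in advance.

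The 10 genes had a median change of 1.23 on alkali, beside 0.02 over all tested genes. Cd63 was called lower in 6 of the 20 fits that each left out 1 library (adjusted p from 0.0233 to 0.0491): those without untreated control 26, alkali-treated control 4, untreated oxalate 32, 39 or 40, or alkali-treated oxalate 2. It was also called lower with DESeq2 size factors (-0.27, adjusted p = 0.044) and with DESeq2 (-0.27, adjusted p = 0.0116). Without the 6 libraries with Adipoq, 6 of the 10 genes were called, and Cd9 (0.45, adjusted p = 0.102) and Atp6v0d2 (0.59, adjusted p = 0.106) were not. Scaling by total counts moved the median log2 change of all genes between oxalate and control groups from near 0 up to 0.302 without alkali and 0.235 on alkali. It gave 5645 genes higher and 953 lower on alkali in place of 3604 and 2633, and 7498 and 1308 without alkali in place of 4067 and 3563, so the directions of small changes depend on the scaling.

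Without alkali, the comparison that led to the list, 8 of the 10 genes stood higher and 2 lower, which the choice of the genes fixed in part. No test is given for them, and nothing is read from the 49.4% of all tested genes that edgeR called there (26.4% higher and 23.1% lower). Gpnmb stood 10.92 ± 0.98 higher in oxalate than in control libraries (10.22 without untreated oxalate library 40), the largest change of 15430, and Trem2 6.59 ± 0.62. Lgals3 differed by 3.04 ± 0.28, Fabp5 by 2.99 ± 0.44, Apoe by 2.84 ± 0.30, Cd9 by 1.27 ± 0.17, Atp6v0d2 by 1.23 ± 0.22 and Plin2 by 0.32 ± 0.11. Lpl differed by -1.46 ± 0.23 and Cd63 by -0.10 ± 0.10, the last becoming 0.20 with scaling by total counts.

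**Figure D2:**
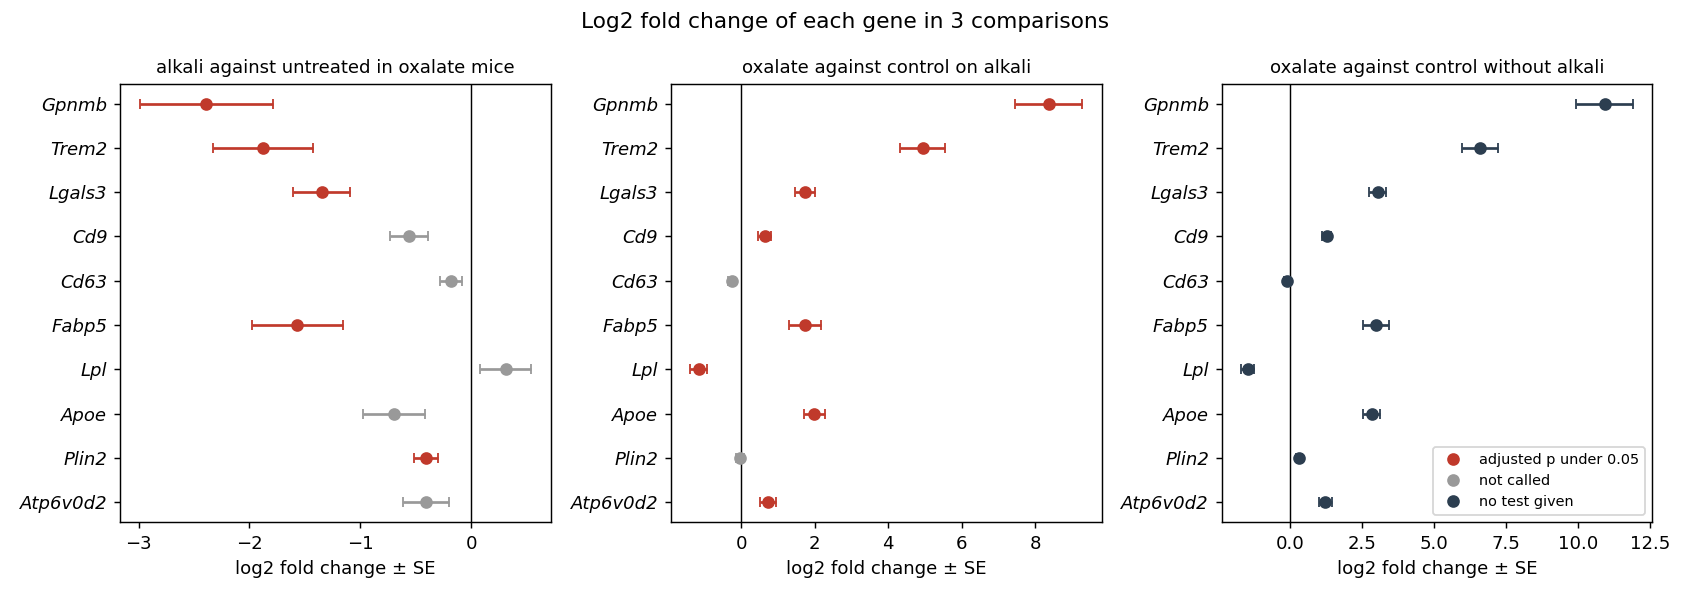
Log2 fold changes ± SE of the 10 genes for alkali against untreated in oxalate mice (left), oxalate against control on alkali (middle) and oxalate against control without alkali (right, with no test). Red points have an adjusted p under 0.05. In oxalate mice 9 of 10 points lie below 0 with alkali, with Gpnmb at -2.39 and Lpl alone above 0.

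Alkali-treated oxalate mice were then compared with untreated oxalate mice. Only the alkali groups carry late in their titles, so alkali and whatever late means cannot be told apart in this comparison. A fall or rise with alkali names the treated group here and below, and no cause. In it 5 of the 10 genes fell and none rose, beside 2.33% of tested genes that fell and 1.76% that rose (4.08% called). This comparison uses the untreated oxalate libraries in which the listed genes were known to be high. The choice of genes therefore favoured falls, and the shares and p-values given here are no independent support. Lgals3 fell by 1.35 ± 0.26 (n = 5 per group, adjusted p = 0.00894), with no overlap between groups, which 1.61% of tested genes had in this direction. Trem2 fell by 1.88 ± 0.45 (adjusted p = 0.0252), Gpnmb by 2.39 ± 0.60 (0.0332), Fabp5 by 1.57 ± 0.41 (0.0371) and Plin2 by 0.41 ± 0.11 (0.0445). Untreated oxalate library 32 lay within the alkali range for Gpnmb, Trem2, Fabp5 and Plin2. Cd9 (-0.56 ± 0.17, adjusted p = 0.0657), Apoe (-0.70 ± 0.28, 0.165), Atp6v0d2 (-0.41 ± 0.21, 0.287), Cd63 (-0.18 ± 0.10, 0.329) and Lpl (0.31 ± 0.23, 0.477) were not called. The median of the 10 genes was -0.63, beside 0.01 over all tested genes.

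These 5 calls depended on single libraries except for Lgals3, which was called in all 20 fits that left out 1 library (adjusted p from 0.00354 to 0.0343). Gpnmb was not called without untreated oxalate library 12 (-2.39, adjusted p = 0.0795), 3 (-2.44, 0.0571) or 40 (-1.73, 0.114), or without alkali-treated oxalate library 30 (-2.19, 0.0899) or 5 (-2.44, 0.0522), so its change was smaller without 40 and 30 and about the same or larger without the others. Trem2 was not called without untreated oxalate 12 (-1.85, adjusted p = 0.062) or 40 (-1.51, 0.0707) or alkali-treated oxalate 30 (-1.73, 0.0717). Fabp5 was not called without untreated oxalate 12, 3 or 40 or alkali-treated oxalate 2, 30 or 5 (changes from -1.63 to -1.09, adjusted p from 0.0571 to 0.12), nor Plin2 in 14 of the 20 fits (0.0527 to 0.115). Conversely, Cd9 was called without untreated oxalate 32 (0.0159) or alkali-treated oxalate 33 (0.0372), and Apoe without alkali-treated oxalate 8 (-1.02, adjusted p = 0.0424). A fit of the 10 oxalate libraries alone, which estimates the spread without the controls, called none of the 10, with adjusted p of 0.13 for Lgals3, 0.151 for Plin2, 0.152 for Trem2, 0.196 for Fabp5 and 0.211 for Gpnmb, and 29 genes in all.

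In control mice, alkali against untreated gave no called gene among the 10 or among all 15430 with edgeR, where 2.52% had an unadjusted p under 0.05, and DESeq2 called 3 genes. Of the 10, none had an unadjusted p under 0.05. Lgals3 changed by -0.04 ± 0.26, Lpl by 0.00 ± 0.23 and Cd63 by -0.02 ± 0.10. The intervals of Gpnmb (-2.66 to 2.99) and Trem2 (-1.85 to 1.38) were wide at these read numbers, so a change of several-fold in controls was not detectable. Whether the difference between alkali-treated and untreated libraries was unlike in oxalate and control mice was tested by the interaction. No gene was called by edgeR (9.26% had an unadjusted p under 0.05, and DESeq2 called 26 genes). Among the 10, Lgals3 (-1.31 ± 0.37, unadjusted p = 0.0021, adjusted p = 0.416), Cd9, Plin2, Apoe and Fabp5 had an unadjusted p under 0.05. All of these changes were negative. The interaction holds the untreated difference that led to the list, so the choice of genes favoured negative values.

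Markers of macrophages moved with these genes. Of the 24 genes of the macrophage list, 19 rose and none fell in oxalate against control mice on alkali (median 2.04), and 3 fell and none rose with alkali in oxalate mice (median -0.85). Their summed level was 458 to 1290 CPM in oxalate mice on alkali, 1000 to 3590 CPM in untreated oxalate mice, 241 to 329 CPM in controls on alkali and 246 to 309 CPM in untreated controls. The calls of list genes for alkali in oxalate mice depended on the libraries fitted: the fit of the 10 oxalate libraries alone called none of the 24, and that without the libraries with Adipoq called 16. None of the 24 was at 0 in all libraries of any group. Cd163 (0.68), Lyve1 (0.27), Csf1r (0.26), Folr2 (0.19) and Mertk (0.00) were not called in oxalate against control mice on alkali. In bulk RNA, fewer macrophages and less RNA of a gene per macrophage cannot be told apart. The injured tubule list moved too, with 11 of 14 genes higher and 1 lower in oxalate against control on alkali and 7 lower with alkali in oxalate mice. Over all tested genes, 2.33% were lower with alkali in oxalate mice. Some lists of other cells also rose on alkali: 7 of 8 dendritic cell genes (median 1.53), 7 of 10 lymphocyte genes (1.28) and 8 of 10 endothelial genes (0.42). None of these fell there, and 23.4% of all tested genes rose and 17.1% fell. The proximal tubule list went the other way, with 10 of 16 genes lower and none higher (median -0.71). Of 9 tested adipose genes none was called. The rise was thus not limited to macrophage genes, and the part of these lists in the changes was not tested.

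Gpnmb was therefore set against general macrophage genes, as its log2 CPM minus the mean of Adgre1, Csf1r, Fcgr1, Mertk and Ptprc in the same library. This difference averaged 1.26 ± 1.35 in oxalate mice on alkali, 3.12 ± 0.93 in untreated oxalate mice, -5.08 ± 0.38 in controls on alkali and -5.28 ± 0.53 in untreated controls (SD, n = 5 each). On alkali, oxalate exceeded control by 6.34 log2 units (exact two-sided permutation test, p = 0.00794, the smallest it can give, adjusted over 3 comparisons p = 0.0238), with no overlap. Gpnmb was listed for its rise without alkali and passed the filter on low counts through the oxalate libraries. This separation was therefore favoured in advance, and its p is no independent support. Gpnmb had few reads in controls, and a prior count of 0.5 in place of 2 gave 6.55. In oxalate mice the difference was 1.86 lower with alkali (exact permutation p = 0.0317, adjusted p = 0.0476), set against the untreated oxalate libraries whose high Gpnmb led to the list. The p was above 0.05 without untreated oxalate library 12 (-1.79), 3 (-1.78) or 39 (-1.94, exact p = 0.0635 each) or 40 (-1.59, exact p = 0.0714). In control mice it was 0.20 higher with alkali (exact permutation p = 0.484). The size depended on the markers: of the 5, Mertk (0.00, adjusted p = 0.987) and Csf1r (0.26, 0.23) were not called in oxalate against control mice on alkali. With Cd68, Lyz2 and C1q genes as markers the differences were 4.90 in that comparison (exact p = 0.00794) and -1.30 for alkali in oxalate mice (exact p = 0.0317).

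The marker mean itself was 4.76 ± 0.39 log2 CPM in oxalate mice on alkali, 5.38 ± 0.46 in untreated oxalate mice, 3.55 ± 0.14 in controls on alkali and 3.54 ± 0.20 in untreated controls. The other genes are given against it with no test. Trem2 averaged -1.98 ± 0.80 in oxalate mice on alkali and -5.26 ± 0.64 in controls on alkali. Lgals3 averaged 1.82 ± 0.33 in oxalate mice on alkali and 1.40 ± 0.25 in controls on alkali, and Apoe 3.92 ± 0.60 and 3.30 ± 0.16 in the same groups. Fabp5 averaged -1.07 ± 0.58 (-2.03 to -0.51) and -1.42 ± 0.24 (-1.83 to -1.25) in these groups. The ranges of the groups overlapped for Fabp5, Lgals3 and Apoe. Cd9, Cd63, Lpl, Plin2 and Atp6v0d2 had lower means relative to the markers in oxalate than in control mice, as Plin2 did at 1.89 ± 0.31 in oxalate mice on alkali and 3.14 ± 0.29 in controls on alkali.

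**Figure D3:**
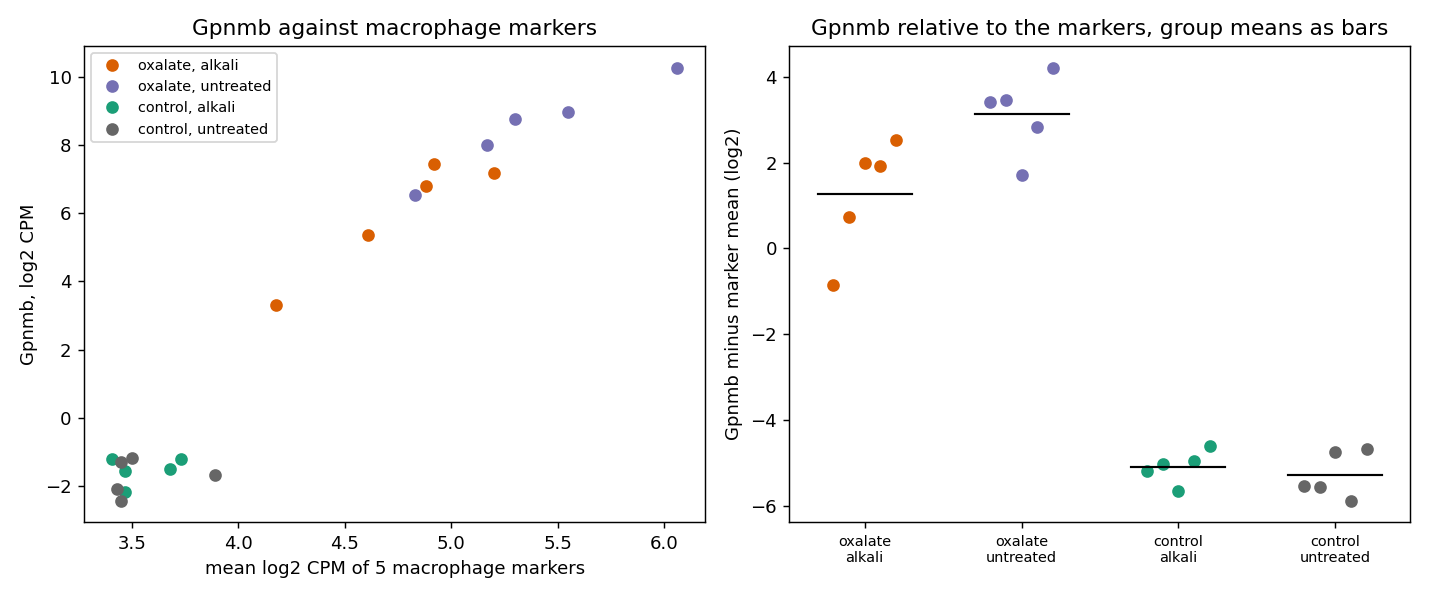
Left, log2 CPM of Gpnmb in each library against the mean log2 CPM of 5 macrophage markers. Right, Gpnmb minus that mean, by group, with group means as bars: 1.26 in oxalate mice on alkali, 3.12 in untreated oxalate mice, -5.08 in controls on alkali and -5.28 in untreated controls.

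Across the 10 oxalate libraries the genes differed in how closely they tracked Gpnmb. Among 12354 genes of sufficient level, the 5 outside the list with the highest Pearson r of log2 CPM to Gpnmb were Fcgr3 (0.996), an antibody receptor, Mmp12 (0.996), the macrophage elastase, Cd68 (0.995), a lysosomal protein of macrophages, Ctss (0.994), a lysosomal protease, and Ncf4 (0.994), a subunit of the phagocyte oxidase. Within the list, Trem2 (0.995), Lgals3 (0.986), Fabp5 (0.983) and Cd9 (0.945) were closest, then Apoe (0.911), Atp6v0d2 (0.887) and Plin2 (0.815). Cd63 (0.002) and Lpl (-0.682) did not share the order. Without the libraries farthest from the median, 2 on alkali and 40 untreated, these became 0.985 for Trem2, 0.965 for Lgals3, 0.953 for Fabp5, 0.963 for Cd9, 0.797 for Apoe, 0.694 for Atp6v0d2, 0.776 for Plin2, 0.154 for Cd63 and -0.41 for Lpl. These values describe libraries that also share their group and their macrophage content: the mean of the 5 macrophage markers gave 0.965 over the 10 libraries and 0.932 over the 8. Over all 20 libraries the closest genes were Lyz2, Aoc1, Mmp14, Runx1 and Aldh1a2, but oxalate and control libraries then form separate clusters and no r is given.

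Most genes of a list of Trem2 signalling rose, a list that also holds genes other than its partners. Of its 16 genes, 12 rose and none fell in oxalate against control mice on alkali (median 1.5), and 3 fell with alkali in oxalate mice. Over all tested genes 23.4% rose and 17.1% fell in the first comparison, and 2.33% fell in the other. The macrophage list rose as well (19 of 24 genes, median 2.04), and whether the signalling genes moved apart from it was not tested. Grb2 (-0.02), Adam10 (-0.02), Ptpn6 (0.19) and Adam17 (0.23) were not called in the first comparison. Tyrobp, the adaptor that Trem2 needs at the surface, rose by 2.33 ± 0.35 (adjusted p = 0.000138) and fell by 1.38 ± 0.32 with alkali in oxalate mice (0.0243). The kinase Syk rose by 2.41 ± 0.34 (adjusted p = 8.71e-05). The fall with alkali was also called for Cd300lb (-1.90 ± 0.53, adjusted p = 0.0454), another receptor that pairs with Tyrobp, and Lat2 (-1.38 ± 0.35, 0.0329). Syk, Cd300lb and Lat2, like the further names below that are no part of the panel of comparison genes, were chosen after their values were seen.

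A list of 32 further genes of lipid-laden macrophages had 19 members that rose and 4 that fell in oxalate against control mice on alkali (median 1.09), and 10 that fell with alkali in oxalate mice (median -0.51). Over all tested genes 23.4% rose and 17.1% fell in the first comparison, and 2.33% fell in the other. Cd68 is also counted in the macrophage list, and Cd36, Fabp4 and Mgll in that of lipid uptake and storage. Mmp12 rose by 5.24 ± 0.73 (adjusted p = 9.86e-05) and fell by 2.45 ± 0.60 with alkali in oxalate mice (0.0289). The integrin Itgax rose by 3.20 ± 0.50 (adjusted p = 0.000199) and fell by 1.72 ± 0.44 (0.0354), and the glucan receptor Clec7a rose by 3.39 ± 0.51 (0.000152) and fell by 1.64 ± 0.44 (0.0427). Cd36, the fatty acid receptor of macrophages and other cells, instead fell in oxalate against control mice on alkali (-0.88 ± 0.28, adjusted p = 0.018). Lipa, the lysosomal lipase, was not called (-0.23 in that comparison). For alkali in oxalate mice the fit of the 10 libraries alone called no gene of this list or of the Trem2 signalling list, and that without the libraries with Adipoq called 20 and 7 lower. With scaling by total counts the falls of Clec7a (adjusted p = 0.0572), Cd300lb (0.063) and Lat2 (0.0553) were not called.

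Genes of lipid uptake and storage were called in both directions, in shares not far from those of all tested genes (23.4% higher and 17.1% lower in oxalate against control on alkali, 2.33% lower with alkali in oxalate mice). Of 33, 5 rose and 7 fell in oxalate against control mice on alkali (median 0.16, and 10 higher and 4 lower with scaling by total counts), and 1 fell with alkali in oxalate mice. The risers included the scavenger receptors Msr1 (3.43 ± 0.56, adjusted p = 0.00023) and Olr1 (4.26 ± 0.85, 0.00109). Among those that fell were Plin5 (-0.83 ± 0.32, 0.0447), a droplet coat protein of oxidative tissues that was not called with scaling by total counts (-0.61), and Dgat2 (-0.72 ± 0.20, 0.00892), which makes triglyceride. Msr1 was the one that fell with alkali in oxalate mice (-1.75 ± 0.45, 0.0323), a call lost with scaling by total counts (0.0505). Of 13 tested targets of PPAR-alpha, a receptor that drives fatty acid oxidation, 7 fell and none rose in oxalate against control mice on alkali (5 fell with scaling by total counts).

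In the sterol export list 6 of 19 tested genes rose and 3 fell in oxalate against control mice on alkali (median 0.17), also not far from 23.4% and 17.1% of all genes. The export pumps Abca1 (0.49 ± 0.16, adjusted p = 0.0228) and Abcg1 (1.16 ± 0.31, 0.00825) rose, while Nr1h3, which encodes the sterol-sensing receptor LXR-alpha, fell (-0.53 ± 0.14, 0.00804). With alkali in oxalate mice 3 fell, beside 2.33% of all tested genes. The 3 included Soat1 (-0.79 ± 0.18, 0.0202), which esterifies cholesterol for storage, and Npc2 (-0.54 ± 0.11, 0.00928), which moves it out of lysosomes. Of the 9 genes of the MiT/TFE family and its regulators, none rose and 2 fell in oxalate against control on alkali (median -0.08), Fnip1 (-0.46 ± 0.11, 0.00573) and Fnip2 (-0.56 ± 0.15, 0.00749). Mitf (0.29, adjusted p = 0.101) and Tfe3 (0.22, 0.0601) were not called there. With scaling by total counts 3 were higher, Mitf (0.51) and Tfe3 (0.44) among them, Fnip2 alone was lower and the median was 0.13.

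Atp6v0d2 stood apart from most of its complex. The counts below for oxalate against control on alkali stand beside 23.4% of all tested genes that rose and 17.1% that fell. With scaling by total counts 5645 of all tested genes were higher and 953 lower. Of 22 other V-ATPase genes, 3 rose and 10 fell in oxalate against control mice on alkali (median -0.19), but 8 were higher and 1 lower with scaling by total counts (median 0.02). The risers were Tcirg1 (1.02 ± 0.22, adjusted p = 0.00237), the membrane subunit of osteoclasts and lysosomes, and the intercalated cell subunits Atp6v1g3 (0.38 ± 0.14, 0.0311) and Atp6v1b1 (0.27 ± 0.10, 0.0318). Atp6v0d1, the general form of the same subunit, fell (-0.24 ± 0.08, 0.0265), as did the intercalated cell subunit Atp6v0a4 (-0.42 ± 0.13, 0.0183), and with scaling by total counts neither was called (-0.03 and -0.22). Of the 16 intercalated cell genes, 5 rose and 1 fell in the same comparison, not far from the shares of all tested genes. With scaling by total counts 12 rose and none fell. The summed level of the 16 genes was 1360 to 1630 CPM in oxalate mice on alkali and 1050 to 1570 CPM in untreated oxalate mice. It was 1300 to 1450 CPM in controls on alkali and 1260 to 1490 CPM in untreated controls. Of 8 tested osteoclast and giant cell genes, 5 rose and 1 fell in oxalate against control mice on alkali, or 7 and none with scaling by total counts. They included Dcstamp, which fuses macrophages into giant cells (4.71 ± 0.93, 0.00108, and -2.08 ± 0.58 with alkali in oxalate mice, 0.0456, or 0.0671 with scaling by total counts). Acp5, the acid phosphatase of osteoclasts, fell in both comparisons (-0.24 ± 0.07, 0.0178, and -0.30 ± 0.07, 0.0283), the first of which was -0.03 and not called with scaling by total counts (0.755). None of the 22 V-ATPase genes was called for alkali in oxalate mice by edgeR with TMM scaling, and 1 was lower with scaling by total counts. The fit of the 10 oxalate libraries alone called none of the V-ATPase, osteoclast, sterol export, lipid storage or tetraspanin genes for alkali.

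The galectin list holds other galectins and Lgals3bp, a glycoprotein that binds galectin-3 and is no galectin. Of 5 tested galectins 2 rose in oxalate against control mice on alkali, Lgals9 (1.15 ± 0.20, adjusted p = 0.000469) and Lgals1 (0.41 ± 0.13, 0.0182), and Lgals3bp rose by 0.99 ± 0.18 (0.000556). None of the 6 was called for alkali in oxalate mice. Of 15 other tetraspanins, 7 rose and 2 fell in oxalate against control on alkali, beside 23.4% and 17.1% of all tested genes. With scaling by total counts 10 were higher and 1 lower. The leukocyte members Cd53 (2.24 ± 0.38, 0.000382) and Cd37 (1.97 ± 0.36, 0.000651) led the rise. Cd53 alone fell with alkali in oxalate mice (-1.43 ± 0.35, 0.0286), and Cd81, a partner of Cd9, was not called in oxalate against control on alkali (0.08) except with scaling by total counts (0.30).

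**Figure D4:**
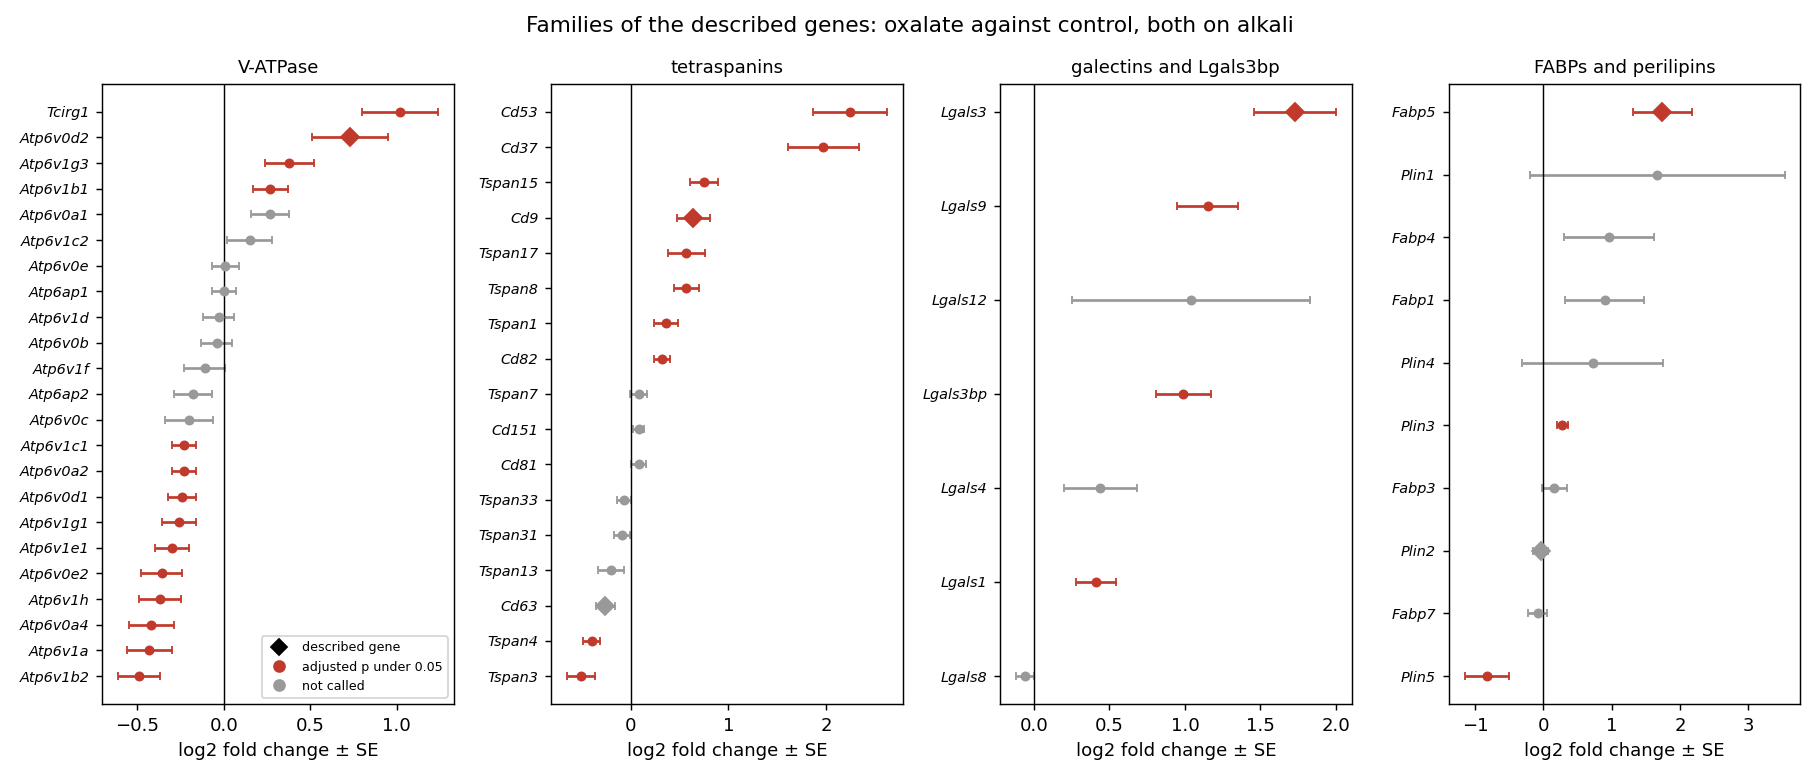
Log2 fold changes ± SE in oxalate against control mice, both on alkali, of V-ATPase genes, tetraspanins, galectins with Lgals3bp, and fatty acid binding proteins with perilipins. Diamonds are genes of the list of 10 and red points have an adjusted p under 0.05: Atp6v0d2 (0.73) stands above all V-ATPase genes but Tcirg1, Cd63 (-0.26) lies on the other side of 0 from Cd9 (0.64), and Plin2 (-0.04) is near 0. With scaling by total counts the median of the V-ATPase genes is 0.02 in place of -0.19, and Plin2 is at 0.18.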

How the data were processed

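Poly(A) RNA of 20 libraries was sequenced with a stranded TruSeq kit, per the labels' protocols. The authors deposited raw counts per gene for 25700 mouse identifiers. The submitters' processing notes name featureCounts, STAR 2.7.1, Trimmomatic, bcl2fastq 2.19 and edgeR. They give a human genome build for mouse identifiers, so the true build is unknown, and the strand setting is not given in the sources used here. Symbols and coordinates came from GENCODE M21 (GRCm38), which matched 25587 identifiers. GENCODE also lists processed copies of Cd9, Cd63 and Fabp5, which are not in the count files, and reads shared with them are uncertain.

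Counts were tested with edgeR 4.0.16 in R 4.3.3 (TMM scaling, filterByExpr with a minimum count of 10, robust quasi-likelihood fit of 4 group means over 20 libraries, Benjamini-Hochberg adjustment over 15430 genes). The filter removed 10270 genes. The code was tested on simulated counts. Log2 CPM used a prior count of 2. RPKM divides TMM-scaled CPM by GENCODE exon length. Gpnmb relative to 5 macrophage markers was compared by exact two-sided permutation over 252 splits. Pairs of libraries within a group differed beyond counting noise in all 40 pairs (chi-square per gene from 9.54 to 228). Alternatives were total-count scaling, DESeq2 size factors, DESeq2 1.42.0, no filter, only the 10 libraries compared, each library left out and, chosen after seeing the data, leaving out the 6 libraries with Adipoq above 1 CPM. Recounting the gene lists under these scalings and library choices was also added after seeing the data.

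The 10 genes, the 19 gene lists and the panel of 33 comparison genes were chosen with earlier results of these data known. Named genes are the 10, the panel, and the 5 genes most like Gpnmb over the oxalate libraries and over all libraries. Further names were picked with their values in view, as stated where they appear.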

Additional observations from a re-analysis of the deposited data

Results flagged for a closer look

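Each of the 40 sets of 5 libraries, 10 genes in 4 groups, was examined for a highest or lowest library whose gap to its neighbour exceeded 0.71 of the group's range, which chance alone gives in about 1 of 20 sets. A single library stood apart in 6 sets. Atp6v0d2 was at 172 CPM in untreated oxalate library 40, against 59.3 to 86.6 CPM in the other 4, and that library was also the highest of its group for 7 of the 10 genes. Atp6v0d2 was at 37.7 CPM in alkali-treated control library 4 (others 44.7 to 46.1 CPM) and at 32.3 CPM in untreated control library 26 (others 42.2 to 43.7 CPM). Untreated control library 26 was also high for Fabp5, at 9.86 CPM (others 3.34 to 5.19 CPM), and for Plin2, at 138 CPM (others 94.9 to 105 CPM). Plin2 was at 121 CPM in alkali-treated oxalate library 33 (others 93.2 to 99.9 CPM). Libraries 26, 33 and 4 held Adipoq at 29.7, 35.4 and 18 CPM, and the part of fat tissue in these values was not tested.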

How the results depend on the processing

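Of the 10 genes, 5 were called for alkali in oxalate mice; total-count scaling left 3, no filter 2, the fit of 10 libraries 0, and leaving out each library 1 to 6. Over all genes this comparison gave 630 calls, and 1203 with DESeq2, 29 in the fit of 10 libraries, 1263 without the libraries with Adipoq and 185 to 1160 leaving out each library. Oxalate against control on alkali gave 6237 calls and 3219 without the libraries with Adipoq. Alkali in control mice gave 3 calls with DESeq2 and 0 to 1 leaving out each library. The interaction gave 26 calls with DESeq2, 1 without the libraries with Adipoq and 0 to 3 leaving out each library. Gpnmb relative to the markers changed by -2.22 to -1.33 with alkali in oxalate mice leaving out each library. The causes were not tested, beyond the fewer libraries of some fits.

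Signs turned for small changes only. Under total-count scaling Cd63 in oxalate against control without alkali was 0.20, Plin2 in oxalate against control on alkali 0.18, and Cd63 for alkali in controls 0.01. For alkali in controls, Lgals3 was 0.01 and Plin2 0.14 without the libraries with Adipoq, and Lpl -0.01 with DESeq2 size factors, -0.01 with DESeq2 and -0.00 with no filter. Leaving out each library, Plin2 on alkali ran from -0.12 to 0.03, Lpl with alkali in oxalate mice from -0.01 to 0.45 and in the interaction from -0.01 to 0.45. Alkali in controls ran from -0.46 to 0.34 for Trem2, -0.11 to 0.03 for Lgals3, -0.07 to 0.03 for Cd63, -0.45 to 0.01 for Fabp5, -0.11 to 0.09 for Lpl and -0.12 to 0.06 for Plin2. No paired analysis was possible because the numbers in the sample titles are not shared between groups. At 3 to 10 reads per control library, changes of Gpnmb within controls could not be resolved.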
